A study of Homo sapiens with 6 samples.

Results

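Complement is a cascade of plasma proteins, most of them made by hepatocytes, and 9 of its genes are described here: C1R, C1S, C3, CFB and C5, which encode components of the cascade, and C4BPA, C4BPB, CFI and CD55, which encode inhibitors. They were chosen by name, as every probe set that the platform annotation pairs with one of these symbols and no other, and all 9 were found among 19775 genes, on 14 probe sets. The cells were Hep3B, an established line from a human liver cancer, and their total RNA was measured on 6 Affymetrix HG-U133 Plus 2 arrays, 3 for cells with miR-17 TuD and 3 for cells with NC TuD. A TuD, or tough decoy, is an RNA whose exposed binding sites hold a microRNA away from its targets. Both groups had been infected for 48 hours with lentiviral particles at a multiplicity of infection of 5 in polybrene and selected in puromycin, and the colonies that resisted it were pooled after 2 weeks, so that each group rests on 1 pooled stable line. The labels do not say that the 3 arrays of a group were separate cultures, and p-values therefore reflect only how much these samples vary, possibly for technical reasons. The sample descriptions also carry a code that reads PLUSDOX in all miR-17 TuD arrays and NODOX in all NC TuD arrays. What the code means is not stated in these sources, and it cannot be told apart from the decoy.

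As background, complement is started by antibody bound to C1q, by lectins, or by slow activation of C3 itself. C1r and C1s are the proteases that sit on C1q, C3 is the protein on which all routes converge, factor B (CFB) supplies the protease of the alternative C3 convertase, and C5 opens the terminal pathway that ends in a membrane pore. Factor I (CFI) is the plasma protease that cuts C3b and C4b, the C4b-binding protein (C4BPA and C4BPB chains) is one of its cofactors, and CD55 is a membrane protein that speeds the decay of convertases. The decoy is directed at the miR-17 family, whose mature strands are shown because the comparison is one of their inhibition. The 6 sequences, taken from RefSeq (GRCh38.p14), share 1 seed, bases 2 to 8, given in capitals.
hsa-miR-17-5p: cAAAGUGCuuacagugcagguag
hsa-miR-20a-5p: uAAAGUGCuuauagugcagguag
hsa-miR-20b-5p: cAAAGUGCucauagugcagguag
hsa-miR-93-5p: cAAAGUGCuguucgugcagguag
hsa-miR-106a-5p: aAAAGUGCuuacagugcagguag
hsa-miR-106b-5p: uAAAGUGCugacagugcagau

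C5 and CFI fell in the miR-17 TuD arrays, C5 by 1.48-fold and CFI by 1.39-fold and 1.34-fold on its 2 probe sets, and no other member passed the test. All values are log2 expression as deposited, a difference is the mean of the miR-17 TuD arrays less that of the NC TuD arrays, and a gene is said to rise or fall where its adjusted p is under 0.05 (limma, Benjamini-Hochberg over 32768 probe sets). All 14 member probe sets passed the filter on low values. Of these, 3 fell and none rose. Of all probe sets tested 5.83% passed, 2.48% with a fall and 3.35% with a rise. At an unadjusted p under 0.05, limma gave 9 of the 14, against 22.1% of all probe sets tested. All 3 miR-17 TuD arrays lay below all 3 NC TuD arrays on 7 of the 14 probe sets, those of C5, CFI, C1S, C3 and C4BPB, where 13.6% of all probe sets did so. The opposite order was seen on 1, a CD55 probe set, where 13.7% of all probe sets did so. The median difference of the 14 was -0.21, against 0 over all probe sets tested. RNA was taken from whole cultures, so fewer cells with a transcript and less of it per cell cannot be told apart.

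**Figure D1:**
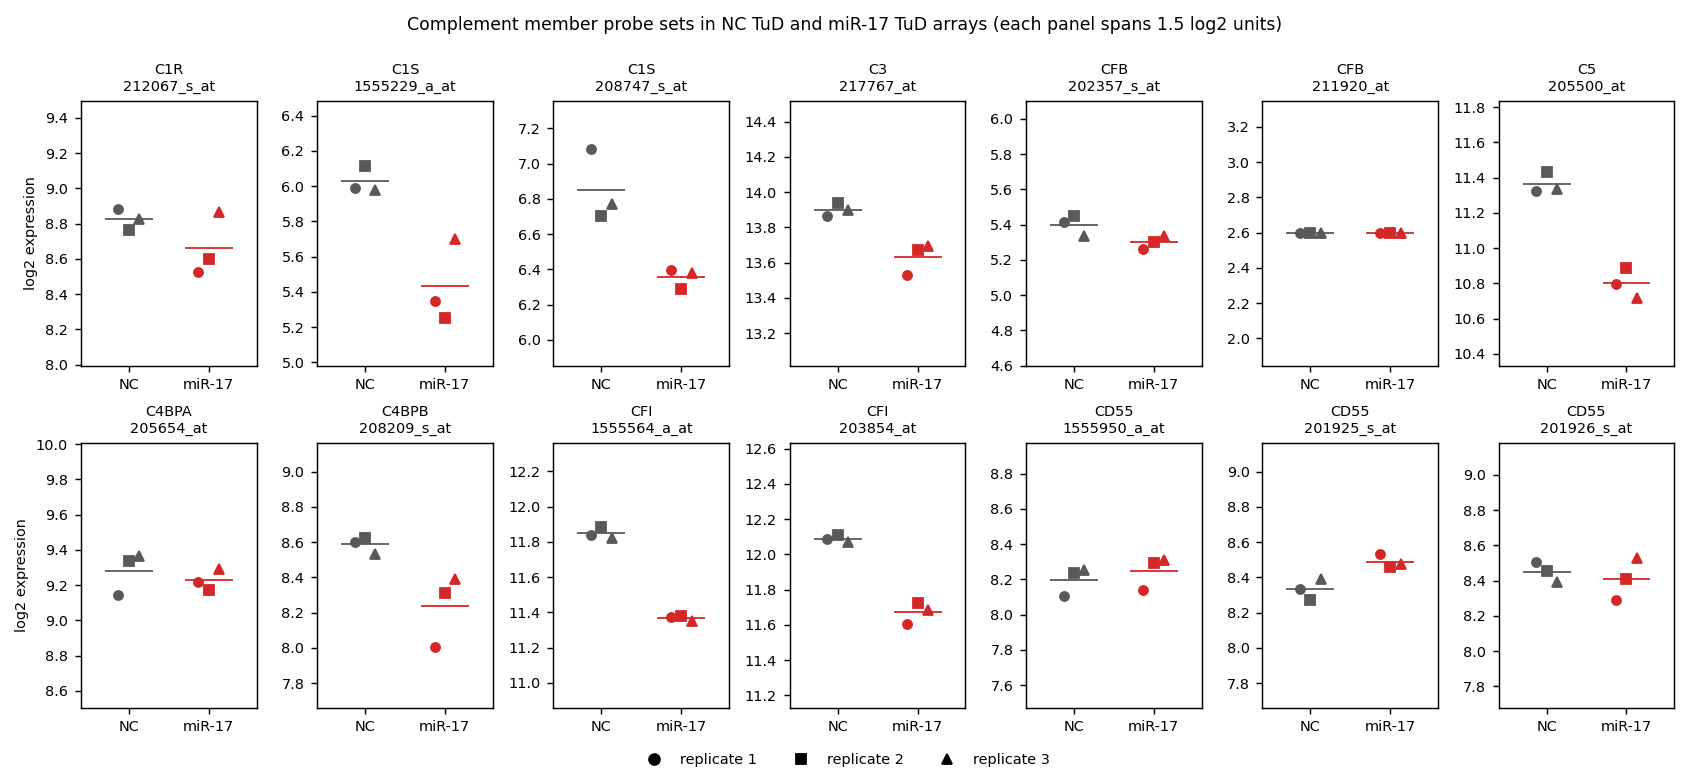
Each panel plots log2 expression (vertical axis, 1.5 log2 units in every panel) of 1 probe set in the 3 NC TuD arrays (grey) and the 3 miR-17 TuD arrays (red), with a line at the group mean and a marker shape for each replicate number. The groups are apart for C5 and both CFI probe sets, overlap for C1R and C4BPA, and sit at 2.59 on all arrays for the second CFB probe set.

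Within the classical pathway, C1S was measured by 2 probe sets and C1R by 1. On the first C1S probe set (1555229_a_at) the miR-17 TuD arrays read 5.35, 5.25 and 5.70 and the NC TuD arrays 5.99, 6.11 and 5.98. On the second (208747_s_at) they read 6.40, 6.29 and 6.38 against 7.08, 6.70 and 6.77. Both probe sets were lower in every miR-17 TuD array than in any NC TuD array, by -0.59 (SE 0.13) and -0.50 (SE 0.11), and neither passed the threshold (adjusted p = 0.0801 and 0.0843 in limma). The first passed in 5 of 14 alternative settings, 1 of which averaged both probe sets (adjusted p = 0.0157 in limma). The second passed in 2 of 14. Both passed with the stricter filter at the 60th percentile, which left fewer probe sets to adjust over (adjusted p = 0.0292 and 0.0318). C1R (212067_s_at) read 8.53, 8.60 and 8.87 against 8.88, 8.76 and 8.83. Replicate 3 of the miR-17 TuD arrays lay within the NC TuD range while the other two lay below it, so the groups overlapped, and the difference was -0.16 with a 95% interval of -0.43 to 0.11 (adjusted p = 0.445). C1S and C1R, partners in 1 protease complex, are neighbours in the RefSeq genes of GRCh38.p14 with 0 protein-coding genes between them.

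C3 is the component on which the routes of activation meet. Its probe set (217767_at) read 13.53, 13.67 and 13.69 in the miR-17 TuD arrays and 13.86, 13.94 and 13.90 in the NC TuD arrays. The groups did not overlap, with a gap of 0.17, and the difference of -0.27 (SE 0.051, a 1.20-fold lower mean) just missed the threshold at adjusted p = 0.0592. This call turned on the setting, since it passed in 6 of 16 alternatives, among them 1 probe set per gene (adjusted p = 0.0411) and quantile normalization (adjusted p = 0.0406), and with none of the 6 arrays left out in turn.

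CFB, the protease of the alternative pathway, was measured weakly. Its first probe set (202357_s_at) read 5.26, 5.30 and 5.34 against 5.41, 5.45 and 5.34, a difference of -0.10 (95% interval -0.20 to -0.0026, adjusted p = 0.217), and the groups touched at replicate 3 of both. The second (211920_at) stood at 2.59 on all 6 arrays, equal in every deposited digit shown, so it gave no information on CFB.

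C5, whose cleavage releases an inflammatory peptide and starts pore assembly, fell in the miR-17 TuD arrays. Its probe set (205500_at) read 10.80, 10.89 and 10.72 in the miR-17 TuD arrays and 11.33, 11.43 and 11.34 in the NC TuD arrays. All miR-17 TuD arrays were lower, with a gap of 0.44 between the groups. The means were 10.80 ± 0.086 and 11.36 ± 0.058 (SD, n = 3), a difference of -0.56 (SE 0.056, 95% interval -0.71 to -0.42, adjusted p = 0.018 in limma). The call ended without miR-17 TuD replicate 1 (adjusted p = 0.0556) and without NC TuD replicate 1, 2 or 3 (0.0729, 0.0733 and 0.0721), while the difference stayed between -0.61 and -0.52.

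CFI, the protease that inactivates C3b, fell on both of its probe sets. The first (1555564_a_at) read 11.38, 11.38 and 11.35 against 11.84, 11.89 and 11.82, and its means of 11.37 ± 0.016 and 11.85 ± 0.032 (SD, n = 3) differed by -0.48 (SE 0.02, adjusted p = 0.00613 in limma). The second (203854_at) read 11.61, 11.72 and 11.69 against 12.09, 12.11 and 12.07, with means of 11.67 ± 0.059 and 12.09 ± 0.021 and a difference of -0.42 (SE 0.034, adjusted p = 0.0141). Neither probe set had any overlap between groups, and their 95% intervals (-0.53 to -0.43 and -0.51 to -0.33) overlap each other. The first passed whichever array was left out (adjusted p from 0.0213 to 0.0389 over 6 fits). The second lost its call without NC TuD replicate 1, 2 or 3 (0.068, 0.0666 and 0.059), so that the number of member probe sets that fell was 1 without any of these arrays.

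**Figure D2:**
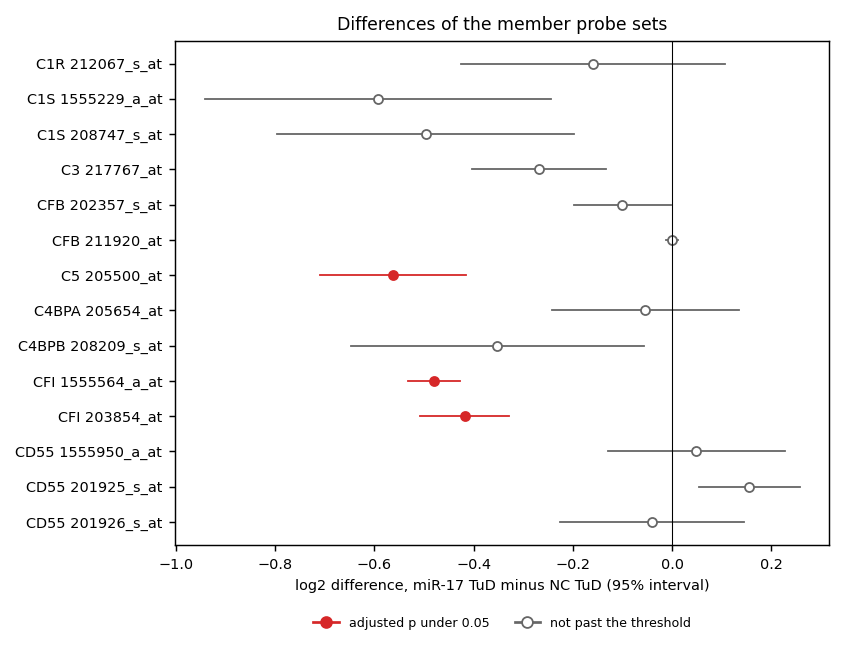
The log2 difference, miR-17 TuD minus NC TuD (horizontal axis), is plotted for each member probe set (rows) with its 95% interval, in red where the adjusted p is under 0.05. C5 and both CFI probe sets are red and lie between -0.56 and -0.42, and the 3 CD55 probe sets lie between -0.04 and 0.16.

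The promoters of C5 and CFI, the members that fell, are shown for the letters they hold. RefSeq promoters (GRCh38.p14), each running from 250 bases before to 50 bases after a gene start, were found for 7 of the 9 members, 11 sequences in all, and C5 has 2 starts. Motifs were searched on both strands: TAATNATTA for HNF1, TGTTTAC for FOXA, TTCNNNGAA for STAT factors, TTGCNNAA for C/EBP, GGANTTTCC for NF-kB and CAAAGTCCA for HNF4, all factors known to act on liver or acute phase genes. Matches to these motifs are in capitals, and the letters were chosen with the sequences in view.
C5 start 1 (chr9:121074816-121075115, minus strand): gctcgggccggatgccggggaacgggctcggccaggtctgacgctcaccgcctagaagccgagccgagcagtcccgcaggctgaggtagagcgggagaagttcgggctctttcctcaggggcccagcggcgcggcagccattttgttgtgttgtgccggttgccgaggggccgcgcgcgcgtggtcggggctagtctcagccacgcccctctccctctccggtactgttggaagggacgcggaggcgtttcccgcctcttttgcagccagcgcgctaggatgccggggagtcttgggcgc
C5 start 2 (chr9:121050226-121050525, minus strand): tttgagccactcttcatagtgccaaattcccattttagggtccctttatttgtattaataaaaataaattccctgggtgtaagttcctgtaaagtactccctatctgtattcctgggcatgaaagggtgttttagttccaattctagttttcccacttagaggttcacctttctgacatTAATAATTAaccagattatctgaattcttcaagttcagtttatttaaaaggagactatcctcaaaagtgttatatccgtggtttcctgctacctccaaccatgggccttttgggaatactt
CFI (chr4:109801950-109802249, minus strand): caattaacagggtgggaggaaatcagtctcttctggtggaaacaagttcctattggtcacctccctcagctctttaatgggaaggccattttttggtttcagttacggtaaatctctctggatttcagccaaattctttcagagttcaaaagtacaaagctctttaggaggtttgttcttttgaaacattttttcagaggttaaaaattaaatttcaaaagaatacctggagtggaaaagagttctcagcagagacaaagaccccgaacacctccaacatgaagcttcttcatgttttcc
Among these 3 sequences 1 match was found, the HNF1 motif at the second C5 start, TAATAATTA, which begins 71 bases before that start. This motif was held by 0.504% of 35116 promoters. GC content was 69.3% at the first C5 start, 37% at the second and 39.3% at CFI. Which C5 start the cells used was not measured. Among the other members, STAT motifs (7.66% of all promoters) were found at CFB, at the second C1R start and at 2 of 3 C4BPB starts, which overlap and share the match. The FOXA motif (3.42%) was found at C4BPA and at the same 2 C4BPB starts, and the C/EBP motif (10.5%) at both C1R starts. The NF-kB (1.64%) and HNF4 (0.384%) motifs had no match in the 11 sequences, and the CD55 promoter had none of the 6. A match here is a description of letters and not a measured site.

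The C4b-binding protein is assembled from alpha chains (C4BPA) and a beta chain (C4BPB). C4BPB (208209_s_at) read 8.01, 8.31 and 8.39 in the miR-17 TuD arrays and 8.60, 8.63 and 8.53 in the NC TuD arrays. Every miR-17 TuD array was lower, replicate 1 most of all, and the difference of -0.35 (SE 0.11, 95% interval -0.65 to -0.056) did not pass (adjusted p = 0.166). C4BPA (205654_at) read 9.22, 9.18 and 9.29 against 9.15, 9.34 and 9.36. Its groups overlapped, with a difference of -0.054 and an interval of -0.24 to 0.13 (adjusted p = 0.676). The 2 genes are neighbours on the same chromosome, with 0 protein-coding genes between them.

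CD55, the only member that encodes a membrane protein, was measured by 3 probe sets that did not move together. On 201925_s_at the miR-17 TuD arrays read 8.53, 8.46 and 8.48 and the NC TuD arrays 8.34, 8.27 and 8.39, all 3 higher, with a difference of 0.16 (SE 0.039, adjusted p = 0.0995). On 1555950_a_at they read 8.14, 8.29 and 8.31 against 8.10, 8.24 and 8.25, a difference of 0.048 (adjusted p = 0.698). On 201926_s_at they read 8.29, 8.41 and 8.53 against 8.50, 8.45 and 8.39, a difference of -0.04 (adjusted p = 0.774) that turned to 0.019 without miR-17 TuD replicate 1. The latter 2 probe sets overlapped between groups, and none of the 3 passed under any setting tried.

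Related members were also compared within each array, as the difference between their log2 values, for 3 pairs chosen with the values known. C5 minus C3, 2 proteins of 1 family, was -2.73, -2.78 and -2.98 in the miR-17 TuD arrays and -2.54, -2.51 and -2.56 in the NC TuD arrays. The 3 miR-17 TuD values lay below the 3 NC TuD values, with a shift of -0.29. C1S (208747_s_at) minus C1R was -2.13, -2.31 and -2.49 against -1.80, -2.06 and -2.06, and C4BPB minus C4BPA was -1.21, -0.87 and -0.90 against -0.54, -0.71 and -0.83. Neither pair overlapped between groups, with shifts of -0.34 and -0.30. Each of the 3 comparisons gave p = 0.1 in a 2-sided exact permutation test (0.1 after Benjamini-Hochberg adjustment over 3), which is the smallest p that 3 against 3 arrays allow, so none could reach the threshold.

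Over the 13 member probe sets whose values varied, the arrays of each group were not alike. Replicate 1 of the miR-17 TuD arrays held the lowest value of its group on 7 of them, replicate 2 on 4 and replicate 3 on 2. Replicate 3 held the highest value on 8. Among the NC TuD arrays, replicate 3 was lowest on 6 and replicate 2 highest on 7. Such counts were not made over all probe sets. Averaged over the 13, miR-17 TuD replicates 1, 2 and 3 lay at -0.32, -0.26 and -0.19 from the NC TuD mean, and the NC TuD arrays at 0.0016, 0.012 and -0.014. The order of the miR-17 TuD arrays differed between members. C5 and CFI 1555564_a_at were lowest in replicate 3, and both C1S probe sets, C4BPA and CD55 201925_s_at in replicate 2.

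**Figure D3:**
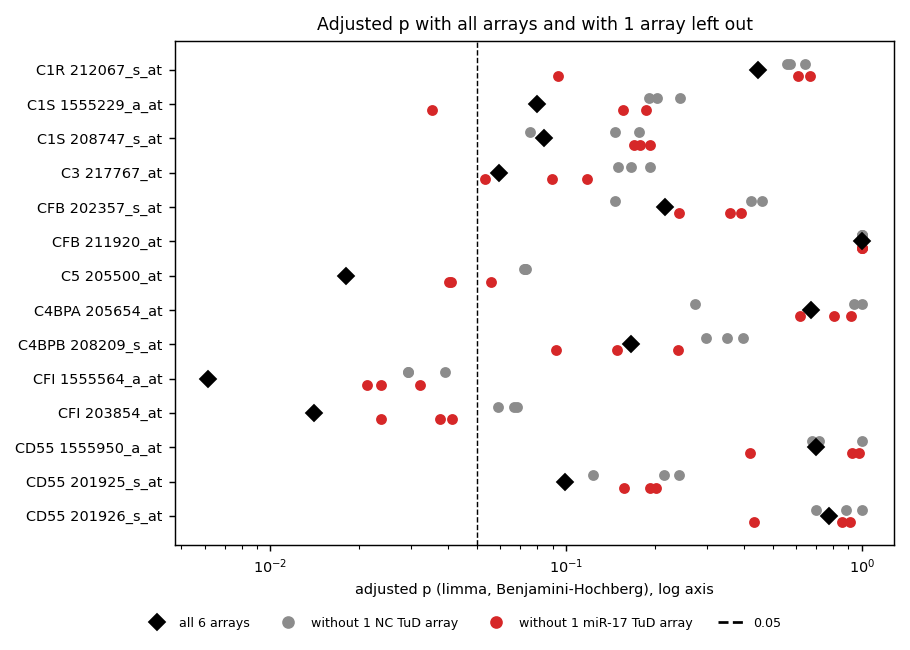
Adjusted p in limma (horizontal log axis) is plotted for each member probe set (rows) with all 6 arrays (black diamonds), without 1 NC TuD array (grey) and without 1 miR-17 TuD array (red), with a dashed line at 0.05. Only CFI 1555564_a_at stays left of the line in all 6 of the smaller fits, and C3 stays right of it in all of them.

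Other complement genes were taken from a list of 47, each read from whichever of its probe sets had the highest mean. A probe set was found for 40, and 20 passed the filter on low values. C6, a component of the membrane pore, SERPING1, the inhibitor of C1r and C1s, and CLU, which encodes the fluid-phase inhibitor clusterin, fell. CPN1, the catalytic subunit of the carboxypeptidase that inactivates C3a and C5a, and C1QBP, a mostly mitochondrial protein named for binding C1q, rose. These are 3 that fell and 2 that rose of 20, where 3.14% of 13949 genes fell and 4.82% rose. The miR-17 TuD arrays lay below all NC TuD arrays for 5 of the 20, against 14.7% of all genes, and the median difference of the 20 was -0.045.

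C6 read 6.25, 6.49 and 6.53 in the miR-17 TuD arrays against 7.33, 7.15 and 7.29 in the NC TuD arrays, a 1.78-fold fall (-0.83, SE 0.096, adjusted p = 0.0227 in limma). SERPING1 read 10.19, 10.31 and 10.44 against 10.93, 10.88 and 10.83, a 1.49-fold fall (-0.57, SE 0.071, adjusted p = 0.0261). CLU read 13.13, 13.19 and 13.21 against 13.74, 13.72 and 13.77, a 1.48-fold fall (-0.57, SE 0.026, adjusted p = 0.0064). With its probe sets averaged the CLU difference was smaller, -0.39, and passed (adjusted p = 0.00588 in limma). None of these 3 genes had overlapping groups. CPN1 went the opposite way, at 9.25, 9.19 and 9.36 against 8.60, 8.67 and 8.73, a 1.52-fold rise (0.60, SE 0.056, adjusted p = 0.0163). C1QBP rose 1.13-fold, with all 3 miR-17 TuD arrays (14.40, 14.30 and 14.37) above the NC TuD arrays (14.19, 14.16 and 14.19, adjusted p = 0.044). The CLU call held whichever array was left out (adjusted p from 0.0191 to 0.0443). Without NC TuD replicate 1, 2 or 3 the other 4 calls ended (adjusted p from 0.059 to 0.155), and those of C6 and SERPING1 also ended without miR-17 TuD replicate 2 (0.0655 and 0.0819) and that of C1QBP without miR-17 TuD replicates 1 or 3 (0.0878 and 0.112). With no filter on low values the C6, SERPING1 and C1QBP calls ended (0.0584, 0.0654 and 0.102). More probe sets were adjusted over there and the SE of these genes were also larger, and the part of each was not tested.

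The other genes of the list did not pass or were not tested. MASP1, a protease of the lectin pathway (-0.64, adjusted p = 0.0831), C8B, a pore component (-0.37, adjusted p = 0.304), and C1RL, a protease related to C1r (-0.21, adjusted p = 0.18), missed the threshold, as did the membrane inhibitors CD46 (0.17, adjusted p = 0.0576) and CD59 (-0.051, adjusted p = 0.236). Groups did not overlap for MASP1 and C1RL, both lower in the miR-17 TuD arrays. Nor did they for CD46, which was higher, at 13.53, 13.53 and 13.44 against 13.30, 13.36 and 13.32. Those of C8B and CD59 overlapped. Readings of C9, C7, MASP2, CFP, the C1q chains C1QA, C1QB and C1QC, and the receptors CR2, C5AR1 and C5AR2 stood at the lowest value, 2.12, on all 6 arrays, where no difference could be seen.

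**Figure D4:**
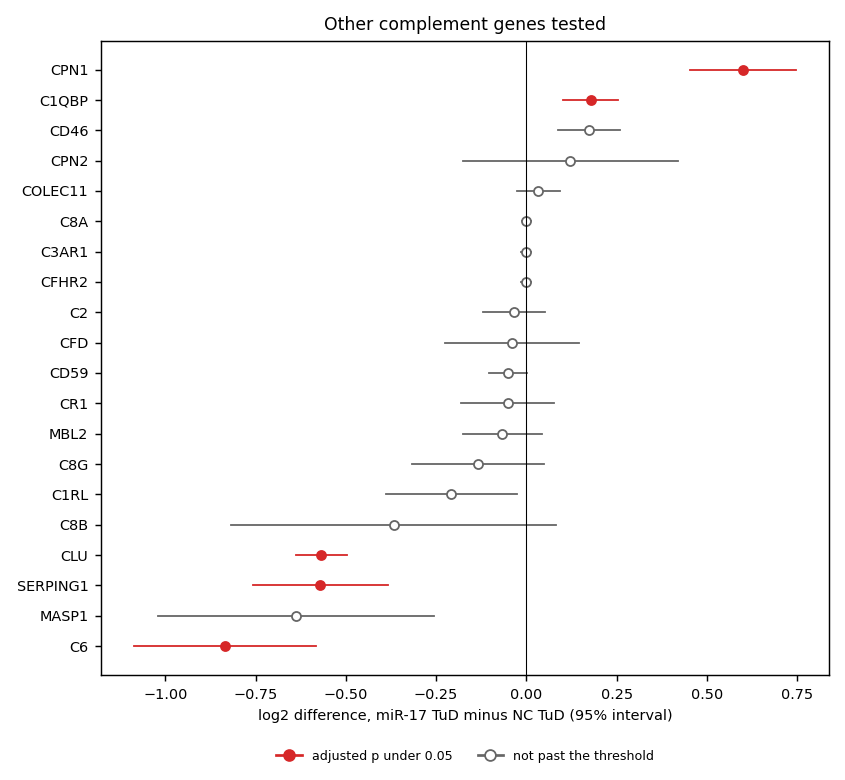
The log2 difference, miR-17 TuD minus NC TuD (horizontal axis), is plotted with its 95% interval for the 20 other complement genes tested (rows), in red where the adjusted p is under 0.05. CPN1 and C1QBP lie right of 0 in red, and CLU, SERPING1 and C6 lie left of it, down to -0.83.

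A further list held 22 measured genes for receptors, signalling proteins and transcription factors known to act on complement transcription in liver. It included inhibitors such as NFKBIA. Of the 22, 1 fell and 1 rose, where 3.14% of all genes fell and 4.82% rose, so the counts were near those over all genes. Their median difference was -0.0069. NFKBIA, the inhibitor of NF-kB, differed by -0.21 (adjusted p = 0.0201), and JAK1, a kinase of cytokine receptors, by 0.22 (adjusted p = 0.03). Leaving out 1 array ended the NFKBIA call in 5 of 6 cases and the JAK1 call in 6 of 6 (adjusted p up to 0.0914 and 0.108). With the probe sets of each gene averaged the differences were smaller, -0.12 and 0.12, and both passed (adjusted p = 0.0299 and 0.037 in limma). Other probe sets of JAK1 rose by 0.29 and 0.26 (adjusted p = 0.0366 and 0.0315 in limma). The JAK1 average of 0.12 lay below all of these, so JAK1 probe sets with smaller or opposite differences also entered it. STAT3 (0.13, adjusted p = 0.201), CEBPB (0.027, adjusted p = 0.845), CEBPA (-0.22, adjusted p = 0.0607) and IL1R1, an interleukin-1 receptor chain (-0.42, adjusted p = 0.0613), did not pass. Nor did RELA (0.19, adjusted p = 0.0651), MYD88 (0.17, adjusted p = 0.0722) and IRF1 (0.28, adjusted p = 0.0888). The miR-17 TuD arrays lay below all NC TuD arrays for 5 of the 22, against 14.7% of all genes. They lay above them for 5, where 13.7% of all probe sets did so.

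Marker genes of liver cells were present on the arrays. Of 12 measured hepatocyte markers, 11 had a mean above 9 on the log2 scale, and 10 of the 12 fell, where 3.14% of all genes did. Shares over all genes, here and elsewhere, take in weakly expressed ones. Of all probe sets tested 812 of 32768 fell, and 1566 of 21845 with the filter at the 60th percentile. The median difference of the hepatocyte markers was -0.47, and their falls stood beside those of C5 and CFI. Macrophage markers, which include the C1q chains, had means under 3 for 9 of 10, the exception being LYZ, which rose by 0.59 (adjusted p = 0.0305). Their mean level was 2.68 to 2.71 in the miR-17 TuD arrays and 2.63 to 2.65 in the NC TuD arrays. Endothelial markers were under 3 for 7 of 8 and lymphocyte markers for 8 of 8. Of 9 fibroblast markers, COL1A1, PDGFRA, LUM and COL1A2 had means above 9, COL3A1 stood at the lowest value on all arrays, and none passed the test. Their mean level was 6.34 to 6.48 against 6.28 to 6.30. The part of these levels in the complement results was not tested.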

How the data were processed

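RNA of 3 miR-17 TuD and 3 NC TuD samples was measured on 1 array each. The authors deposited 1 log2 value per probe set and array. RMA and GCRMA are named in the submitters' processing notes, without version or role, and array software is not stated in those sources. The values lay between 2.12 and 16.3, and each array held 34.9% to 35.4% of its probe sets at the minimum, a floor that hides changes of weakly expressed genes. They were used as deposited, and precision is limited by the number of arrays.

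After 62 controls were left out of 54675 probe sets, 41091 of the rest had 1 gene symbol, 1801 several and 11721 none, and 41037 symbols were matched to RefSeq GRCh38.p14 through Entrez identifiers. Probe sets with a mean at or under the 40th percentile (2.14) were not tested, which left 32768. The test was limma (version 3.58.1, R version 4.3.3, functions lmFit and eBayes, 2-sided, Benjamini-Hochberg adjustment, threshold 0.05, prior degrees of freedom 0.63). The pipeline was tested on simulated data. Probe sets with the suffix s_at can bind more than 1 transcript.

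Every member probe set was named whatever its values. From each other list except the cell type markers, genes past the threshold were named, up to the 6 with the largest difference. Genes named beyond that were chosen after their values were seen. The calls of the cell type markers were not followed under the alternatives. Members and lists were chosen with earlier results of these data known. Alternatives were other filters, quantile normalization, median centring, a robust variance trend, array weights, a replicate block, 1 or averaged probe sets per gene, no s_at, x_at or a_at probe sets, and leaving out each array. Correlations across probe sets were 0.9994 to 0.9996 between arrays of 1 group, and no array duplicated another.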

Additional observations from a re-analysis of the deposited data

How the results depend on the processing

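For the member probe sets, 203 values were recomputed under the alternatives, with the average of a gene's probe sets counted once. Of these, 179 kept their direction and side of the threshold, 13 newly passed it, 10 lost it, and 1 reversed, CD55 201926_s_at, which ranged from -0.10 to 0.019 with 1 array left out and was above 0 without miR-17 TuD replicate 1. The number of member probe sets past the threshold, 3 of 14, was 6 of 12 with the filter at the 60th percentile, 6 with arrays centred on their median, 5 with array weights and 1 to 4 with 1 array left out, all of them lower. Over all 32768 probe sets tested, the 1910 calls became 2930 with centred arrays, 2027 with array weights and 145 to 1155 with 1 array left out. The 60th percentile gave 3271 calls among only 21845 tested, so calls rose over all probe sets as well wherever 5 or 6 members passed. Dropping the filter gave 554 calls among 54613. Excluding the s_at, x_at and a_at types gave 653 among 22436. Of the other complement genes, 5 passed, against 2 with no filter and 1 to 5 with 1 array left out. The cause of these shifts was not tested.

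Same-numbered arrays of the groups correlated in their deviations at 0.04, 0.10 and 0.11, and each array correlated best with its own number, a hint from the data and not the design, so the numbers were not taken to pair the samples. With the replicate block, limma called 0 of 32768 probe sets (7488 at an unadjusted p under 0.05), 0 of 14 member probe sets (8 unadjusted) and 0 of 20 other complement genes (8 unadjusted), and the C5 and CFI adjusted p were 0.0541 to 0.0587.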

Other observations

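Among other plasma proteins of the liver, genes of fibrinogen and the coagulation factors fell in 6 of 14 tested, and none rose, where 3.14% of all genes fell and 4.82% rose. The fibrinogen chains FGB (-1.26, SE 0.097, adjusted p = 0.0129 in limma), FGA (-0.73, adjusted p = 0.0175) and FGG (-0.67, adjusted p = 0.0104), the kinin precursor KNG1 (-0.78, adjusted p = 0.0142), prothrombin F2 (-0.43, adjusted p = 0.0192) and F7 (-0.43, adjusted p = 0.011) were those that fell. The miR-17 TuD arrays lay below all NC TuD arrays for 10 of the 14, against 14.7% of all genes, and the median difference was -0.31. With 1 array left out, the F2 call ended in 5 of 6 cases, all but that without NC TuD replicate 2 (adjusted p up to 0.0832). Leaving out each NC TuD array in turn ended the calls of KNG1, FGA and FGB every time (adjusted p up to 0.0799), and those of KNG1 and FGA were also lost without miR-17 TuD replicate 2 (0.0501) and replicate 3 (0.052) respectively. The FGG call ended without NC TuD replicates 1 or 3 (up to 0.0574) and the F7 call without NC TuD replicate 2 (0.0552). With the probe sets of a gene averaged, F7 stood at -0.19 and KNG1 at -0.57, and both passed (adjusted p = 0.0142 and 0.00351 in limma).

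Acute phase protein genes were mixed. Of 13 tested, HPX, which encodes the heme carrier hemopexin (-0.82, SE 0.1, adjusted p = 0.0258), and AHSG, which encodes fetuin-A (-0.34, SE 0.038, adjusted p = 0.0219), fell, and none rose. Over all genes, 3.14% fell and 4.82% rose. The median difference of the 13 was 0.0031. ORM1 (-0.13, adjusted p = 0.2), SERPINA1 (0.13, adjusted p = 0.122) and A2M (0.40, adjusted p = 0.187) did not pass, and CRP and LBP had means under 3. Leaving out 1 array ended the HPX call in 5 of 6 cases (adjusted p up to 0.0998) and the AHSG call in 5 of 6 (up to 0.0974), and both ended with no filter on low values (0.065 and 0.0562).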
